A study of Mus musculus with 16 samples.

Results

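The Schlafen (Slfn) genes Slfn1, Slfn2, Slfn3, Slfn4, Slfn5, Slfn8 and Slfn9 were followed by their symbols in the count matrices, 7 of 31053 genes measured, across leukocyte classes gated on marker genes and across 4 groups of mouse tumors. Schlafen genes encode a vertebrate family of proteins induced by interferon and other innate signals. Short members such as Slfn1 and Slfn2 hold little beyond the shared Slfn core, Slfn3 and Slfn4 are of intermediate length, and the long members Slfn5, Slfn8 and Slfn9 add a helicase-like carboxyl end. Slfn2 is needed to keep T cells and monocytes quiescent, Slfn4 is known from myeloid cells, and the human long member SLFN11 is known for making cells sensitive to DNA damage.

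The cells came from subcutaneous flank tumors of C57BL/6J mice. MC38 is a colorectal carcinoma line whose control by radiation depends on adaptive immunity, and Panc02-SIY derives from pancreatic adenocarcinoma, carries the SIY model antigen, and is a line in which radiation raises little immunity. Each tumor was either left untreated or given a single CT-guided dose of 12 Gy, and tumors were harvested after 24 h, enriched magnetically for CD45+ cells and sorted for live CD45+ cells. The groups were untreated MC38, irradiated MC38, untreated Panc02-SIY and irradiated Panc02-SIY, with 4 libraries each. The labels do not say which animal each library came from, and the methods give fewer animals per group than there are libraries. Libraries of a group may therefore share an animal, so p-values measure the spread between libraries and may be too small.

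Libraries of the same tumor line shared cell barcodes. Over 28 pairs of MC38 libraries the median overlap was 964.5 barcodes (83.3% of the smaller library), over 28 Panc02-SIY pairs it was 82 (5.54%), and across the lines it was 0. Each barcode was therefore kept only in the library where it had the most unique molecular identifiers (UMIs, 1 per captured transcript), which left 20756 of 28678 barcodes, 2625 of them from MC38. Total UMIs kept per library ran from 3422372 to 8495322 in untreated MC38, from 1385711 to 8500889 in irradiated MC38, from 6491156 to 43685374 in untreated Panc02-SIY and from 5275195 to 26738456 in irradiated Panc02-SIY. Results on MC38 are given below also with all barcodes in every library and with the barcodes found in 1 library only. These unshared barcodes numbered 19322 over both tumor lines. MC38 can hold only a small part of them, since it had 2632 distinct barcode sequences in all. Of the kept barcodes, 16833 were gated, including T cells that fitted none of the CD8, CD4 and regulatory subsets and entered no class comparison. The genes that led each class were of the kind its name says (C1qa, C1qc and C1qb in macrophages, Chil3 and Lyz2 in monocytes, S100a9 and S100a8 in neutrophils). Macrophages made up a median of 63.3% of barcodes per library in untreated MC38, 56.1% in irradiated MC38, 15.5% in untreated Panc02-SIY and 11.2% in irradiated Panc02-SIY.

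The 7 genes lie in 1 cluster on chromosome 11 that spans 263.8 kb in mm10, in the order Slfn5, Slfn9, Slfn8, Slfn2, Slfn1, Slfn4 and Slfn3. In GENCODE vM21 they are Slfn5 (ENSMUSG00000054404, chr11:82951349-82964840), Slfn9 (ENSMUSG00000069793, chr11:82978390-82991830), Slfn8 (ENSMUSG00000035208, chr11:83002158-83020810), Slfn2 (ENSMUSG00000072620, chr11:83065112-83070678), Slfn1 (ENSMUSG00000078763, chr11:83116849-83122670), Slfn4 (ENSMUSG00000000204, chr11:83175186-83190216) and Slfn3 (ENSMUSG00000018986, chr11:83191330-83215154), all protein-coding. Slfn9 and Slfn8 are on the minus strand and the others on the plus strand. A shared sequence sits just before the start sites of the neighbors Slfn9 and Slfn8. The 200 bases that precede each RefSeq start site (mm10, 5′ to 3′ on the gene's strand) are shown because the family is interferon-inducible and these stretches hold, in capitals, the letters GAAA NN GAAA (N is any base) on the opposite strand, the core of the interferon-stimulated response element (ISRE). The first is chr11:82991831-82992030 on the minus strand.
Slfn9: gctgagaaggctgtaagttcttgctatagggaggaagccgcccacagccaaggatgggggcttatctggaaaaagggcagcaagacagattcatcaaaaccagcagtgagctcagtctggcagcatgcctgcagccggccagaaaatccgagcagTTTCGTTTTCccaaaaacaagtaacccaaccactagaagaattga
The second is chr11:83020811-83021010, also on the minus strand.
Slfn8: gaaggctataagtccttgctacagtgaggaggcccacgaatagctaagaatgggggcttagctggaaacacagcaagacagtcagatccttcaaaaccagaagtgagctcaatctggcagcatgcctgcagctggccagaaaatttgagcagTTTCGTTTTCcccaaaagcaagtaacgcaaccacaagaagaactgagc
Over the 300 bases from 250 before to 50 after the start site, the promoters of Slfn8 and Slfn9 were identical at 248 of 292 aligned bases (84.9%). The match began 45 bases before the start site of Slfn9 and 48 bases before that of Slfn8. It began 136 bases before a second RefSeq start site of Slfn8, where 88 of the 200 preceding bases are GENCODE exon. Another match, GAAAAAGAAA, lay 155 bases before the RefSeq start site of Slfn5. That site lies inside the gene as GENCODE places it, and 117 of the 200 bases before it are exon. The windows of Slfn1, Slfn2, Slfn3 and Slfn4 held no such run of letters. The stretch before Slfn4, the member with the largest fitted change after radiation in MC38 macrophages, is shown too (chr11:83174986-83175185, plus strand, no capitals because no exact match was found).
Slfn4: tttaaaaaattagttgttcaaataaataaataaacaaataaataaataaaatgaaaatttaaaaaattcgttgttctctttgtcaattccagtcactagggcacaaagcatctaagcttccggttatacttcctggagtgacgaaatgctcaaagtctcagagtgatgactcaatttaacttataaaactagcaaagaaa
Both strands were searched for exact runs of these letters only, so near matches were not counted in any window, that of Slfn4 included. The searched windows also held bases that the printed stretches leave out, from 250 to 200 before the start site and the 50 after it. ISRE letters were present in 1131 of 32851 RefSeq promoter windows of the same length (3.44%). A match is a description of these windows only.

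Slfn8 and Slfn9 resemble each other at the end that was counted too. Of the windows of 91 bases in the last 500 transcript bases, 9.25% of those of Slfn8 (110 of 1189) and 9.59% of those of Slfn9 (118 of 1230) also occur in another gene. For Slfn3 the share was 0.675% (5 of 741, shared with Slfn4), and it was 0 for the other members. The genes that share windows with them are each other and the pseudogene Slfn10-ps. How reads from such windows were counted is uncertain for Slfn8 and Slfn9. Slfn5os, a gene antisense to Slfn5, was listed with 0 UMIs.

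All 7 members were detected. Over the kept barcodes Slfn2 had 57504 UMIs in 12736 barcodes, Slfn5 26883 in 5051, Slfn1 18188 in 5957, Slfn8 12167 in 6471, Slfn4 4879 in 1656, Slfn9 4795 in 2621 and Slfn3 500 in 446. The rows Slfnl1 and Slfn14 held 2 and 9 UMIs and were not followed further. Levels below are the UMIs of a gene per 1000000 UMIs (CPM) of a class summed within a library, and they are compared between cells for 1 gene at a time.

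Neutrophils and monocytes had the highest mean levels of every member except Slfn3 in the Panc02-SIY tumors, where every class had enough barcodes for an order. Classes were compared within a library on log2(CPM + 10) by a two-sided permutation test of the paired differences, adjusted over 252 tests (7 genes, 36 class pairs, libraries of both tumors where they held at least 10 barcodes of both classes). Of these tests 173 passed an adjusted p of 0.1, from 7 of 36 class pairs for Slfn3 to 32 of 36 for Slfn5. With 8 libraries the smallest exact p is 0.0078. The levels below are means over Panc02-SIY libraries.

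Of the short members, Slfn1 fell steeply across classes. It stood at 924 ± 94.5 CPM in neutrophils (SD, n = 8 libraries), 292 ± 33.8 in monocytes and 98.3 ± 32.0 in CD4 T cells, and each step was larger than the spread between libraries (higher in 8 of 8 and 9 of 9 libraries, exact permutation adjusted p = 0.031 for both). From CD4 T cells through CD8 T cells (61.7 CPM), macrophages (49.0) and regulatory T cells (42.8) to conventional dendritic cells (cDCs, 21.2), no step between neighbors passed. Some classes further apart in this run did differ. CD8 T cells were above regulatory T cells and above cDCs in 7 of 7 libraries (exact permutation adjusted p = 0.031 for both). B cells (8.37) were below cDCs at an exact permutation adjusted p of 0.051, and NK cells (3.35) were lowest. In single neutrophil libraries Slfn1 read 794, 918, 983 and 853 CPM in untreated and 982, 1075, 964 and 827 CPM in irradiated Panc02-SIY, so the groups overlapped. Over all 4 groups, Slfn1 UMIs were seen in 75.8% of 1674 neutrophils (median depth 2371.5 UMIs) but in 1.71% of 1927 NK cells (4636 UMIs), and in 32.2% of 5569 CD8 T cells (7545 UMIs).

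Slfn2 was present in every class. Its level was 985 ± 113 CPM in neutrophils, 612 ± 111 in monocytes and 367 in CD4 T cells, then 318 in macrophages, 292 in regulatory T cells, 264 in CD8 T cells, 220 in cDCs, 205 in B cells and 156 in NK cells. Below CD4 T cells the only neighboring step that passed was the last, from B to NK cells (exact permutation adjusted p = 0.091). Over all 4 groups, Slfn2 UMIs were found in 77.8% of CD8 T cells, 78.9% of neutrophils and 86.2% of 695 monocytes.

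Among the intermediate members, Slfn4 was far higher in neutrophils than in any other class of Panc02-SIY tumors. It stood at 477 ± 176 CPM in neutrophils against 33.8 ± 16.7 in monocytes (higher in 8 of 8 libraries) and 6.73 in macrophages (below monocytes in 15 of 15 libraries, permutation adjusted p = 0.0017), and the remaining classes lay between 0.508 CPM in cDCs and 3.08 CPM in regulatory T cells. In single neutrophil libraries it read 353, 484, 520 and 381 CPM untreated and 513, 376, 320 and 870 CPM irradiated. Slfn4 UMIs occurred in 43.8% of untreated and 44.1% of irradiated Panc02-SIY neutrophils (median depth 2557 and 2230 UMIs) and in 16% and 20% of monocytes (10279 and 10058.5 UMIs). NK cells, with 0.609% and 2.06% (5502 and 4266.5 UMIs), and CD8 T cells, with 0.892% and 1.3% (8485 and 6447 UMIs), are given for comparison. The source of their Slfn4 UMIs was not tested. In MC38 monocytes the shares were 40.6% untreated and 46.8% irradiated. Slfn3 was near the detection limit, from 0.625 CPM in neutrophils to 6.88 CPM in monocytes, and no neighbors in its order differed. CD8 T cells lay above neutrophils in 7 of 8 libraries (exact permutation adjusted p = 0.031).

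Among the long members, Slfn5 was highest in monocytes. It averaged 965 ± 294 CPM there, 798 ± 280 in neutrophils (below monocytes in 7 of 8 libraries, exact permutation adjusted p = 0.031), 299 ± 168 in cDCs and 132 ± 68.2 in macrophages, and it fell to 24.4 in NK cells and 23.3 in CD8 T cells. Over all 4 groups, Slfn5 UMIs were seen in 85.6% of monocytes, with 11.6 UMIs per positive barcode, and in 7.07% of CD8 T cells. Slfn8 was spread more evenly, at 181 CPM in neutrophils, 146 in monocytes, 115 in regulatory T cells, 97.7 in NK cells, 88.9 in B cells, 86.7 in CD4 T cells, 63.3 in macrophages, 58.8 in CD8 T cells and 20.8 in cDCs, where it was lower than in CD8 T cells in 7 of 7 libraries (exact permutation adjusted p = 0.031). Slfn9 ran from 39.4 CPM in neutrophils, 36.4 in monocytes and 30.3 in macrophages to 6.94 in B cells and 3.62 in cDCs.

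**Figure D1:**
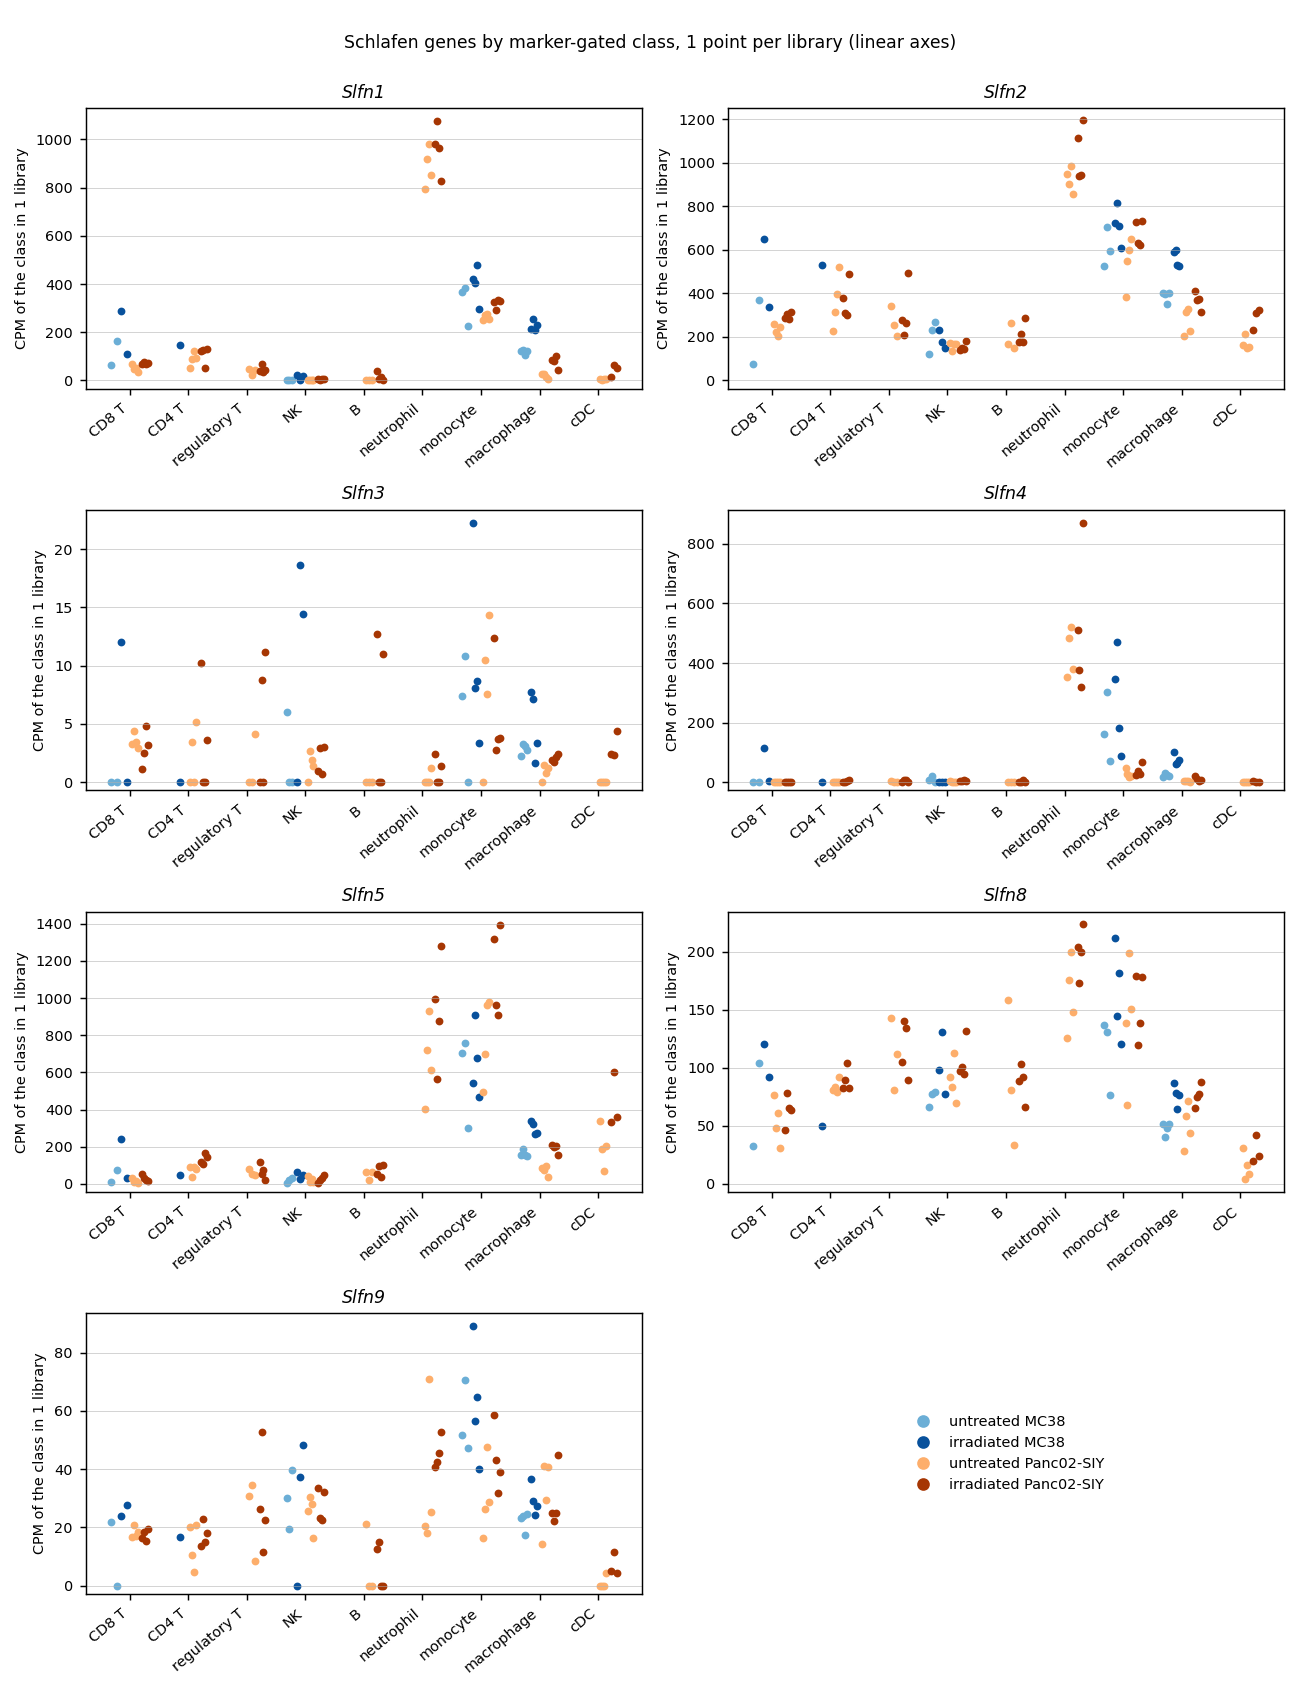
Level of each Schlafen gene (CPM of a class in 1 library, linear axes) by leukocyte class, 1 point per library with at least 10 barcodes of the class, colored by group. Neutrophil points are from Panc02-SIY only. Neutrophils and monocytes sit highest for Slfn1, Slfn2 and Slfn5. Within Panc02-SIY Slfn4 sits highest in neutrophils, while an MC38 monocyte library reached 471 CPM. Slfn3 stays under 10 CPM in most libraries.

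Across 26 means of a class in a group, Slfn1 and Slfn2 were the most alike members (Pearson r = 0.95), Slfn8 and Slfn9 reached 0.73, and Slfn5 and Slfn8 were least alike (0.33). Correlations are of log2(mean CPM + 10) over points that share libraries, as a description. Of 9479 genes compared, those closest to Slfn1 were Slfn2 (0.95), Oas3 (0.94), Ifit1 (0.93), 1600014C10Rik (0.92) and Isg15 (0.90), of which Oas3, Ifit1 and Isg15 are classic interferon-stimulated genes. Those closest to Slfn2 were Slfn1 (0.95), Oas3 (0.93), 1600014C10Rik (0.93), Ccr1 (0.92) and Ifih1 (0.91). Slfn4 was closest to Trem1 (0.96), an activating receptor of myeloid cells, Ninj1 (0.95), Cmpk2 (0.94), Acod1 (0.93) and A530064D06Rik (0.93). Slfn5 was closest to Stat2 (0.94), a subunit of the factor that binds the ISRE, Csf2rb (0.93), Trib1 (0.93), Gpr35 (0.93) and Mefv (0.92). Slfn8 was closest to Ddx58 (0.90), Arid5b (0.86), Zcchc2 (0.82), Samd9l (0.82) and Parp14 (0.81), and Slfn9 to Snx18 (0.86), Klf10 (0.83), Lgals8 (0.82), Lgals9 (0.82) and Cebpb (0.81). Slfn3 was too low to be compared.

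In macrophages, most members tested were higher in irradiated than in untreated tumors. Tumor macrophages, which clear dying cells, had higher Slfn1, Slfn2, Slfn5 and Slfn8 at 24 h in both tumors, by 1.35-fold to 4.59-fold. Slfn4 passed in both tumors too, but in Panc02-SIY the share of macrophages with a UMI was near that of NK cells at equal depth. Slfn9 did not pass the test. Of these radiation calls, only that of Slfn4 in MC38 held under all 12 other settings. No member tested was called when Panc02-SIY was fitted without MC38 (below), a fit in which Slfn4 was not tested. Counts summed per library were fitted over all 4 groups with edgeR, and a call needed a Benjamini-Hochberg adjusted p under 0.1 over all genes of the fit and a fold change above 1.3. In MC38 macrophages 5 of 6 members tested were called, all higher, against 10.5% of all tested genes called and 5.66% called higher. In Panc02-SIY macrophages 5 of 6 were called higher, against 4.77% called and 2.61% called higher. Slfn3 fell below the filter on low counts in macrophages. The members' median log2 fold change was 0.88 in MC38 and 1.03 in Panc02-SIY, and the median over all genes tested was 0.02 and -0.01.

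Slfn1 in macrophages read 121, 125, 107 and 124 CPM in untreated MC38 and 215, 254, 208 and 231 CPM in irradiated MC38. Every irradiated library lay above every untreated one, and the fitted log2 fold change was 1.04 ± 0.27 (SE, edgeR adjusted p = 0.032). In Panc02-SIY the values were 28.3, 27.2, 15.9 and 8.02 CPM untreated and 84.3, 82.7, 101 and 44.7 CPM irradiated. The groups were again separate, from a lower start, and the log2 fold change was 2.20 ± 0.36 (4.59-fold, edgeR adjusted p = 0.0076).

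Slfn2, the quiescence factor, read 401, 397, 349 and 402 CPM in untreated and 592, 597, 530 and 526 CPM in irradiated MC38 macrophages. The groups did not overlap, and the log2 fold change was 0.64 ± 0.13 (edgeR adjusted p = 0.0041). In Panc02-SIY it read 203, 316, 329 and 227 CPM untreated and 412, 368, 375 and 314 CPM irradiated. These groups overlapped, and the log2 fold change of 0.43 ± 0.13 passed narrowly (edgeR adjusted p = 0.086). This call was lost without any 1 of 11 of the 16 libraries and under 8 of 12 other settings.

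Slfn4 had the largest fitted change in MC38. It read 16.1, 29.6, 24.9 and 19.7 CPM in untreated and 102, 59.8, 65.5 and 73.3 CPM in irradiated MC38 macrophages, with no overlap, and the log2 fold change was 1.83 ± 0.24 (3.55-fold, edgeR adjusted p = 0.00029). In Panc02-SIY it read 2.36, 3.35, 3.78 and 1.86 CPM untreated and 21.1, 11.3, 4.33 and 5.75 CPM irradiated. The groups were separate there too, and the log2 fold change was 1.68 ± 0.46 (edgeR adjusted p = 0.065), but the call was lost without untreated library 4 or without irradiated library 2. With each barcode thinned to 2000 UMIs and shallower ones left out, 1.13% of irradiated Panc02-SIY macrophages had a Slfn4 UMI. This was close to the 1.07% of NK cells from the same tumors, so no change in expression is read from this share. In NK cells of the same 4 irradiated libraries Slfn4 read 3.93, 2.92, 6.10 and 4.77 CPM, a range that holds the macrophage values of libraries 3 and 4. Slfn3 stayed between 0 and 7.70 CPM in all 16 macrophage libraries.

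Slfn5 read 154, 187, 155 and 152 CPM in untreated and 340, 323, 268 and 272 CPM in irradiated MC38 macrophages. The groups did not overlap, and the log2 fold change was 1.00 ± 0.21 (edgeR adjusted p = 0.0088). In Panc02-SIY it read 84.9, 73.7, 96.9 and 34.8 CPM untreated and 211, 197, 205 and 154 CPM irradiated. These groups did not overlap either, and the log2 fold change was 1.48 ± 0.24 (2.78-fold, edgeR adjusted p = 0.0049).

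Slfn8 rose as well. It read 51.2, 40.4, 48.2 and 51.2 CPM in untreated and 86.6, 78.0, 64.1 and 76.1 CPM in irradiated MC38 macrophages (no overlap, log2 fold change 0.76 ± 0.16, edgeR adjusted p = 0.0056). In Panc02-SIY the values were 28.3, 58.5, 71.1 and 44.0 CPM untreated and 65.1, 74.8, 77.5 and 87.5 CPM irradiated. The groups overlapped, and the log2 fold change was 0.57 ± 0.17 (edgeR adjusted p = 0.079). The call was lost without any 1 of 8 of the 16 libraries and under 4 of 12 other settings. Slfn9, its neighbor in the cluster, averaged 22.2 ± 3.27 and 29.2 ± 5.31 CPM in untreated and irradiated MC38 macrophages (log2 fold change 0.46 ± 0.23, edgeR adjusted p = 0.24) and 31.4 ± 12.7 and 29.2 ± 10.4 CPM in Panc02-SIY (-0.16 ± 0.23, edgeR adjusted p = 0.80).

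**Figure D2:**
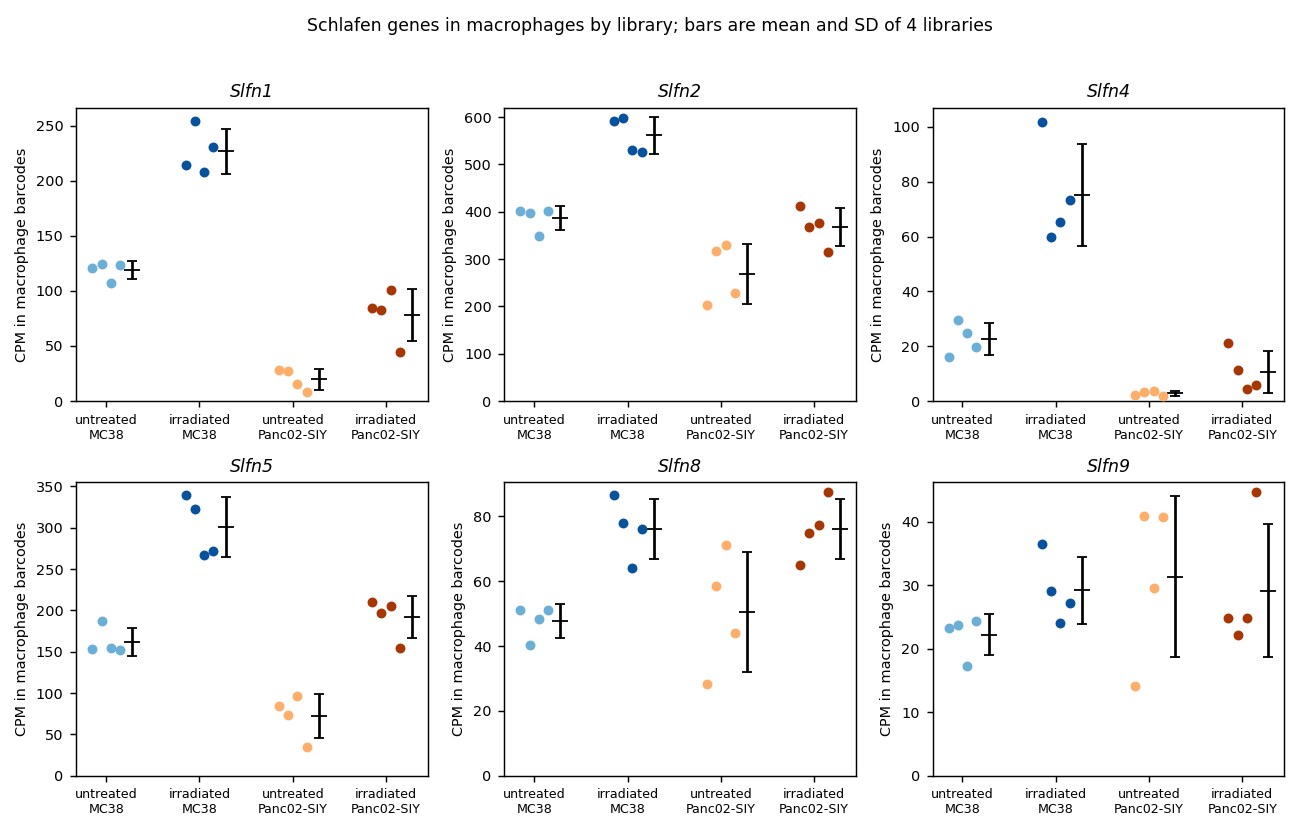
Level of Slfn1, Slfn2, Slfn4, Slfn5, Slfn8 and Slfn9 in macrophages (CPM, linear axes from 0) in the 4 groups, with 1 point per library and bars for the mean and SD (n = 4). For Slfn1, Slfn4 and Slfn5 all irradiated libraries lie above all untreated libraries of the same tumor, and for Slfn9 they overlap.

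The MC38 calls depended on which barcodes were counted. With all barcodes in every library, Slfn2 (0.46), Slfn4 (1.37) and Slfn8 (0.53) were called in MC38 macrophages, 3 of 7 members tested against 3.01% of all genes, and Slfn1 (0.76, edgeR adjusted p = 0.17) and Slfn5 (0.66, edgeR adjusted p = 0.11) missed the threshold. With unshared barcodes only Slfn4 was called (log2 fold change 2.36, edgeR adjusted p = 0.0011, against 0.165% of all genes), and the fitted log2 fold changes of Slfn1 (0.91), Slfn2 (0.40), Slfn5 (1.07) and Slfn8 (0.45) stayed above 0. In Panc02-SIY all 5 calls held with all barcodes (7.06% of all genes called), and Slfn1 (2.16), Slfn4 (1.79) and Slfn5 (1.50) were called with unshared barcodes (1.10% of all genes called). When the Panc02-SIY groups were fitted without MC38, Slfn4 was not tested. No member tested was called with edgeR (0.277% of all genes called), and the lowest edgeR adjusted p was 0.13, for Slfn5. Slfn1 (2.14 ± 0.44), Slfn5 (1.46 ± 0.29), Slfn8 (0.57 ± 0.21) and Slfn2 (0.44 ± 0.16) had an unadjusted p under 0.05 in that fit. DESeq2 called 5 members, but with all 4 groups and so with MC38 included. The matching shares of all genes are not given for these counts, so nothing is concluded from them.

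Markers of cells with higher Schlafen levels were present in the macrophage sums. The gate let the larger marker share decide between macrophage and monocyte, with no lead required. All 7 monocyte markers were detected in every group, with a summed level of 1444 to 1933 CPM in untreated and 1664 to 2663 CPM in irradiated MC38 macrophages, and of 284 to 1768 CPM in untreated and 534 to 942 CPM in irradiated Panc02-SIY macrophages. All 7 neutrophil markers were detected as well, at 39.7 to 46.7, 50.7 to 59.7, 64.9 to 123 and 105 to 123 CPM in the same order. Their part in the result was not tested. Of the kept barcodes of any class, 2943 had a share of macrophage markers at least 0.3 above that of monocyte markers and no neutrophil marker UMI. In the gated macrophages among them, Slfn4 (2.28 ± 0.37, edgeR adjusted p = 0.0016) and Slfn5 (1.09 ± 0.28, edgeR adjusted p = 0.079) were still called in MC38, against 1.86% of all genes. Slfn1 (0.84), Slfn2 (0.48) and Slfn8 (0.37) were not. In Panc02-SIY no member was called in these macrophages (0.171% of all genes called). Slfn1 (1.63), Slfn5 (1.00) and Slfn4 (0.90) had fitted log2 fold changes above 0 there, while Slfn2 was at 0.07.

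**Figure D3:**
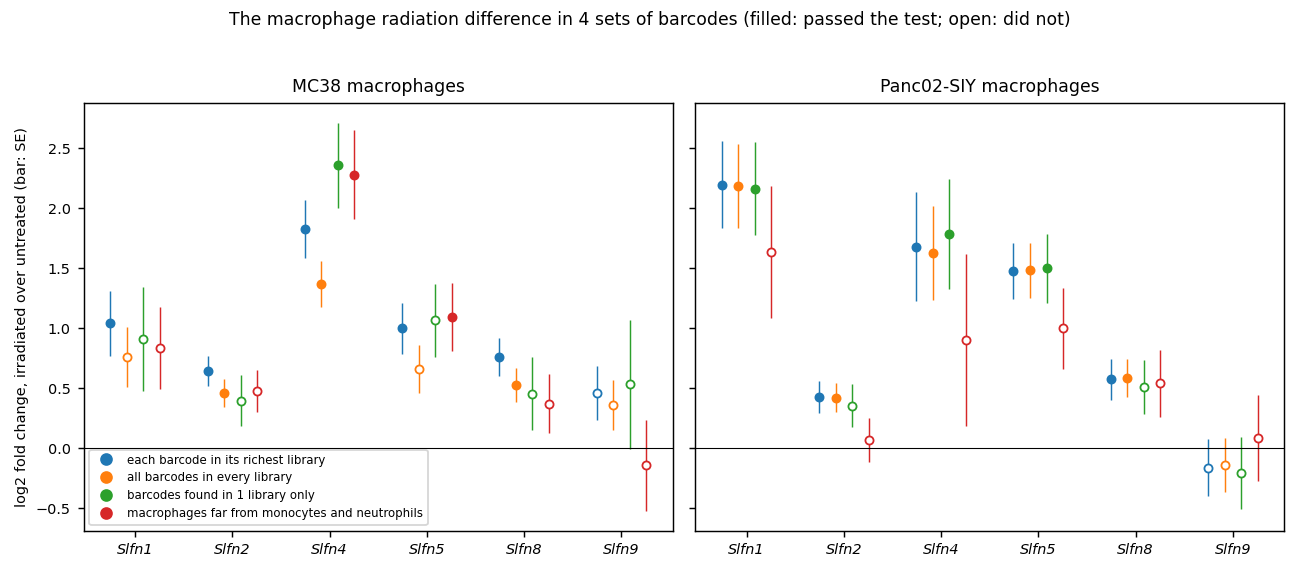
Log2 fold change of each Schlafen gene in macrophages, irradiated against untreated, with SE (edgeR), for MC38 and Panc02-SIY in 4 sets of barcodes: each barcode kept once, all barcodes, unshared barcodes, and macrophages far from monocytes and neutrophils. Filled points passed the test. Slfn4 passed in every set in MC38, and no gene passed in the last set in Panc02-SIY.

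The share of macrophages with a UMI moved the same way as the levels for Slfn1 and Slfn5 in both tumors and for Slfn4 in MC38. With each barcode thinned to 2000 UMIs, Slfn1 was seen in 18.7% of 753 untreated and 30.9% of 628 irradiated MC38 macrophages, and in 2.38% of 1094 untreated and 10.9% of 795 irradiated Panc02-SIY macrophages. Barcodes with fewer than 2000 UMIs were left out of the thinned shares. All gated macrophages numbered 886 untreated and 738 irradiated in MC38, and 1999 and 1304 in Panc02-SIY. Without thinning the Slfn1 shares were 52.4% and 65.2% in MC38 (median depth 19307 and 18111.5 UMIs) and 6.65% and 20.2% in Panc02-SIY (2381 and 5023.5 UMIs). After thinning Slfn5 went from 25.2% to 38.2% in MC38 and from 8.04% to 23.4% in Panc02-SIY, and Slfn4 from 7.04% to 13.9% in MC38. In Panc02-SIY the Slfn4 shares were 0.548% and 1.13%, the latter near the NK cell share given above, and no change is read from them. These shares pool libraries and were not tested.

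Over all CD45+ barcodes of a library the same members were higher after radiation. In MC38, 6 of 7 members were called, all higher, against 11.7% of all genes called and 7.24% called higher, and in Panc02-SIY 5 of 7 were, against 14.7% called and 7.68% called higher. In such sums more cells of a type and more RNA per cell cannot be told apart. Monocytes were a median of 5.50% and 9.57% of barcodes in untreated and irradiated MC38, and 0.908% and 4.58% in Panc02-SIY, and neutrophils went from 7.02% to 14.1% in Panc02-SIY. Slfn1 averaged 125 ± 11.1 and 231 ± 23.8 CPM in untreated and irradiated MC38 (log2 fold change 0.99 ± 0.18, edgeR adjusted p = 0.0039) and 66.3 ± 17.9 and 138 ± 30.1 CPM in Panc02-SIY (0.99 ± 0.18, edgeR adjusted p = 0.0025). Slfn2 averaged 395 ± 13.3 and 556 ± 32.1 CPM in MC38 (0.59 ± 0.071, edgeR adjusted p = 0.00014) and 251 ± 13.4 and 360 ± 20.6 CPM in Panc02-SIY (0.45 ± 0.071, edgeR adjusted p = 0.0011).

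Slfn4 averaged 30.5 ± 10.7 and 87.3 ± 18.8 CPM in MC38 (1.59 ± 0.30, edgeR adjusted p = 0.0049) and 14.9 ± 5.39 and 35.5 ± 10.7 CPM in Panc02-SIY (1.21 ± 0.29, edgeR adjusted p = 0.013). Most of its UMIs lay in macrophages in MC38 and in neutrophils in Panc02-SIY, tumors of unlike class makeup. Macrophages held 63.4% and 71.6% of Slfn4 UMIs in untreated and irradiated MC38, where they were 67.0% and 56.7% of kept barcodes. In untreated MC38 library 4 they held 7857905 of all 8495322 UMIs kept. Neutrophils held 82.6% and 72.6% of Slfn4 UMIs in Panc02-SIY, where they were 6.76% and 11.7% of barcodes. In MC38 they were 0.529% and 0.538% of barcodes and held 6.58% and 0.873% of Slfn4 UMIs. Slfn5 had the largest change over all CD45+ cells of Panc02-SIY, where its values were 89.4, 64.2, 101 and 42.2 CPM untreated and 343, 181, 235 and 230 CPM irradiated (1.67 ± 0.24, edgeR adjusted p = 0.00064). No untreated library reached an irradiated one. Monocytes held 18.3% of Slfn5 UMIs in untreated and 34.9% in irradiated Panc02-SIY, while their share of all kept barcodes was 1.06% and 4.58%. In MC38 Slfn5 averaged 177 ± 35.2 and 309 ± 30.9 CPM (0.90 ± 0.23, edgeR adjusted p = 0.027).

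Slfn8 was called in both tumors (0.80 ± 0.14 in MC38 and 0.45 ± 0.14 in Panc02-SIY, the latter lost without untreated Panc02-SIY library 2 or 4), Slfn9 in MC38 (0.51 ± 0.18, edgeR adjusted p = 0.090, a call lost without any 1 of 12 of the 16 libraries) and Slfn3 in neither (0.84 in MC38, edgeR adjusted p = 0.10). With unshared barcodes 1 of 7 members, Slfn4, was called in MC38 (1.77, edgeR adjusted p = 0.051, against 0.392% of all genes), and Slfn1, Slfn2, Slfn4 and Slfn5 in Panc02-SIY (6.56% of all genes).

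In no other class tested did a member pass for radiation. Here and below, shares of all genes are given for edgeR calls only. Nothing is concluded from counts by DESeq2 or at an unadjusted p under 0.05, which have no such share beside them. Monocytes had log2 fold changes of -0.03 to 0.42 in MC38 and 0.02 to 0.65 in Panc02-SIY over 6 members tested. None was called with edgeR (0.00% and 1.07% of all genes called), none had an unadjusted p under 0.05, and DESeq2 called 0. Untreated MC38 libraries 2, 3 and 4, the ones used, held only 19, 26 and 15 monocyte barcodes. The lack of a call in monocytes is therefore not read as a lack of change. Slfn5 in monocytes read 497, 697, 964 and 977 CPM untreated and 1319, 963, 908 and 1395 CPM irradiated in Panc02-SIY, and the groups overlapped (0.45 ± 0.30). Neutrophils, fitted in Panc02-SIY alone, also had 0 of 6 members called with edgeR (0.0386% of all genes), none with an unadjusted p under 0.05 and 0 by DESeq2. Slfn5 read 400, 719.8, 933 and 615 CPM untreated and 996, 566, 875 and 1282 CPM irradiated in neutrophils (0.49 ± 0.29).

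Lymphocytes gave no radiation call either. In CD8 T cells 0 of 7 members were called with edgeR in either tumor (0.156% of all genes in MC38 and 4.71% in Panc02-SIY), and 2 in MC38 and 0 in Panc02-SIY had an unadjusted p under 0.05. MC38 gave 2 libraries per group with at least 10 CD8 T barcodes. Over all T cells 0 of 7 were called in either tumor (0.468% and 4.63% of all genes), with 3 and 1 at an unadjusted p under 0.05, and in NK cells 0 of 4 (0.248% and 0.397%), with none at an unadjusted p under 0.05. In Panc02-SIY alone, 0 of 4 were called in CD4 T cells (0.730%), 0 of 3 in regulatory T cells (0.123%), 0 of 1 in B cells (1.09%) and 0 of 2 in cDCs (0.0766%). An unadjusted p under 0.05 was reached by 1 member in CD4 T cells, 0 in regulatory T cells, 0 in B cells and 2 in cDCs, and DESeq2 called none of the members in any of these lymphocyte classes or in cDCs. The CD4 T cell member was Slfn5 (0.81 ± 0.25, edgeR adjusted p = 0.21), and the cDC members were Slfn2 (0.73 ± 0.24, edgeR adjusted p = 0.46) and Slfn5 (1.04 ± 0.39, edgeR adjusted p = 0.55).

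In cDCs, the cells that carry antigen to lymph nodes, Slfn1 fell below the filter on low counts, yet its values were separate. It was at 4.45, 3.78, 5.45 and 5.49 CPM (1, 1, 1 and 5 UMIs) in the untreated Panc02-SIY libraries and at 14.7, 62.5 and 52.1 CPM (6, 27 and 47 UMIs) in the 3 irradiated libraries with at least 10 cDC barcodes. With no filter on low counts edgeR called Slfn1 (adjusted p = 7.7e-05) and Slfn5 (1.09 ± 0.27, adjusted p = 0.010) in cDCs, against 1.22% of all genes. Slfn5 read 338, 189, 70.8 and 203 CPM untreated and 332, 599 and 358 CPM irradiated, so these groups overlapped by 1 library. In the same cDCs 5 of 7 monocyte markers were detected, with a summed level of 117 to 543 CPM untreated and 168 to 375 CPM irradiated, and 6 of 7 neutrophil markers, at 12.1 to 30.2 and 13.3 to 25.5 CPM. Vcan was at 0 in both groups. Their part in the result was not tested.

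**Figure D4:**
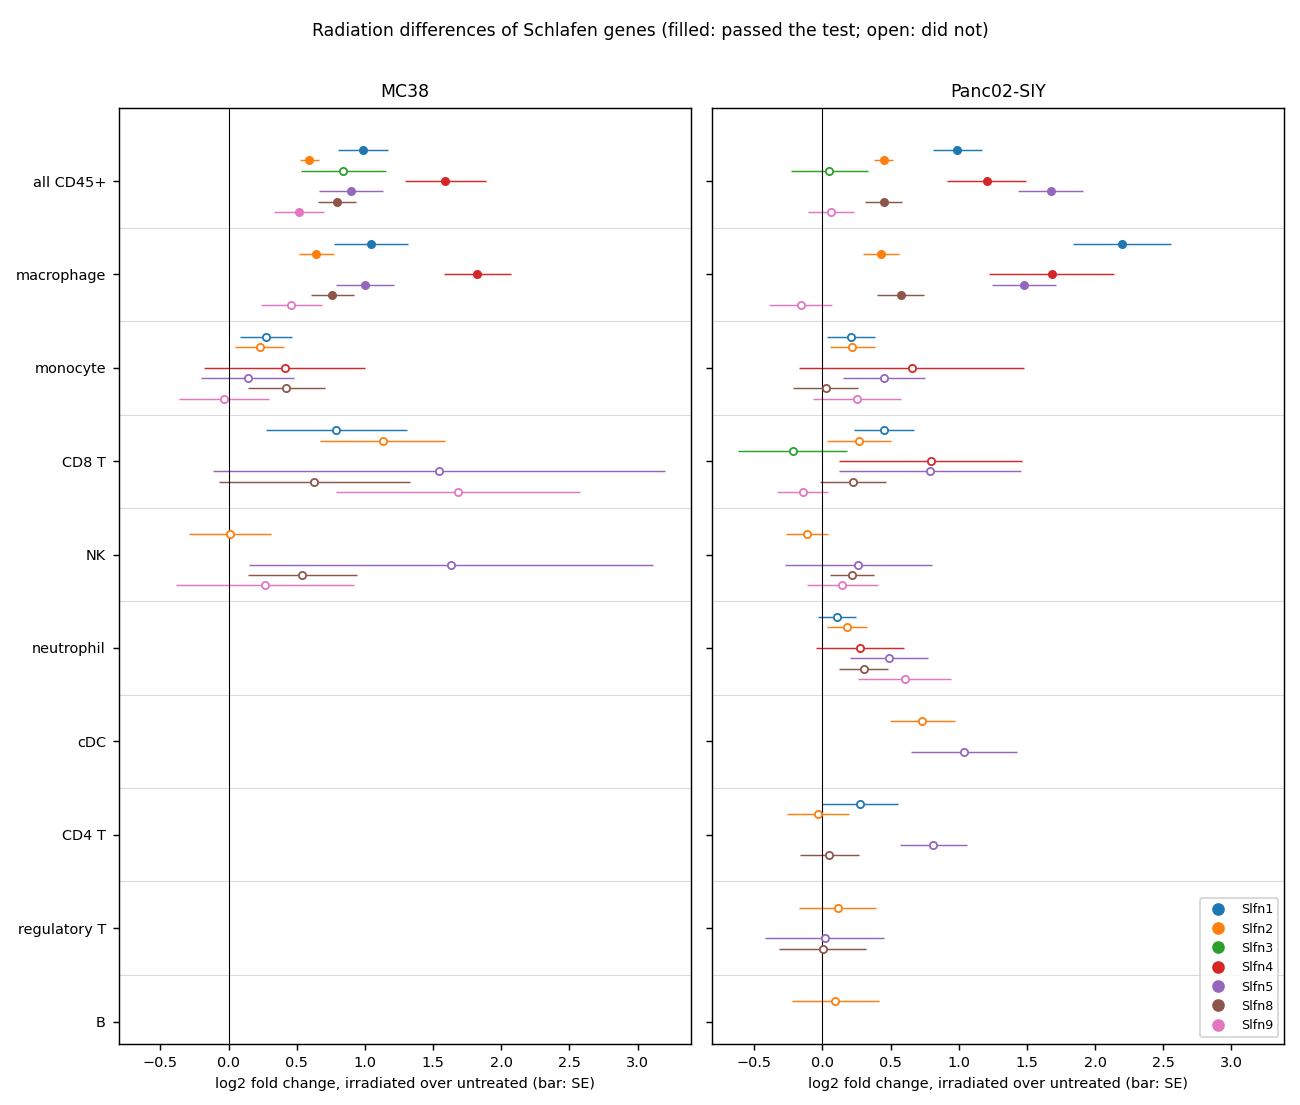
Log2 fold change of each Schlafen gene, irradiated against untreated, with SE (edgeR), by cell population in MC38 and Panc02-SIY. Filled points passed the test, and they occur in macrophages and in all CD45+ barcodes. Slfn3 and Slfn4 in MC38 CD8 T cells are left out because the untreated libraries had 0 UMIs.

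Whether radiation acted differently in the 2 tumors was tested as a difference of the changes. In macrophages 0 of 6 members passed with edgeR (0.00% of all genes called), DESeq2 called 0, and 1 had an unadjusted p under 0.05, Slfn1, whose change was smaller in MC38 by 1.16 ± 0.45 on the log2 scale (edgeR adjusted p = 0.95). Over all CD45+ barcodes 0 of 7 passed (0.345% of all genes called), DESeq2 called 0, and 1, Slfn5, had an unadjusted p under 0.05, with a difference of -0.78 ± 0.33 (edgeR adjusted p = 0.36). In monocytes (0.0352% of all genes), CD8 T cells (0.00920%), T cells (0.00996%) and NK cells (0.00%) no member passed with edgeR or DESeq2, and 0, 1, 1 and 0 had an unadjusted p under 0.05.

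Macrophage levels also differed between the tumor lines. In untreated macrophages Slfn4 was higher in MC38 than in Panc02-SIY (22.6 ± 5.91 against 2.84 ± 0.88 CPM, log2 fold change 3.37 ± 0.38, edgeR adjusted p = 2.3e-06), and no library of Panc02-SIY reached one of MC38. The Panc02-SIY level was near that of NK cells in the same tumors (0 to 2.43 CPM), so the size of the fold rests on a very low level in 1 group. Slfn1 was higher in MC38 by 3.02 ± 0.35 on the log2 scale (119 ± 8.25 against 19.8 ± 9.68 CPM, edgeR adjusted p = 8.3e-06), Slfn5 by 1.41 ± 0.23 (162 ± 16.7 against 72.6 ± 26.9 CPM) and Slfn2 by 0.68 ± 0.13 (387 ± 25.5 against 269 ± 63.2 CPM). Slfn9 was lower in MC38 (-0.51 ± 0.23, edgeR adjusted p = 0.073), a call lost without any 1 of 5 of the 16 libraries and under 6 of 12 other settings, and Slfn8 did not pass (0.04). These 5 calls of 6 members stand against 46.3% of all genes called. After radiation Slfn4 (3.52 ± 0.31), Slfn1 (1.87 ± 0.29), Slfn5 (0.93 ± 0.22) and Slfn2 (0.89 ± 0.13) were higher in MC38 macrophages, 4 of 6 against 47.4% of all genes. Macrophages of the tumor lines also differed in depth and in macrophage marker level (25161 to 26912 CPM in untreated MC38 and 9726 to 15419 CPM in untreated Panc02-SIY), and the part of these in the result was not tested. With unshared barcodes Slfn2 turned to lower in MC38 (-0.24 untreated and -0.19 irradiated, neither called), while Slfn1, Slfn4 and Slfn5 remained higher and were called in both states (28.2% and 26.6% of all genes). In macrophages far from monocytes and neutrophils, Slfn1, Slfn2, Slfn4 and Slfn5 were called higher in MC38 in both states (28.7% and 30.4% of all genes).

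Over all CD45+ barcodes 4 of 7 members were higher in untreated MC38 (Slfn1 1.13, Slfn2 0.86, Slfn4 1.28 and Slfn5 1.47 on the log2 scale), against 61.2% of all genes called in either direction. In irradiated MC38 6 of 7 were higher (Slfn1 1.13, Slfn2 1.00, Slfn3 1.28, Slfn4 1.66, Slfn5 0.70 and Slfn9 0.52), against 58.6%. The untreated count is no larger than the share over all genes, and class makeup differed between the tumors as given above. With unshared barcodes Slfn2 turned to lower in MC38 (-0.16 untreated and -0.30 irradiated) and Slfn1 fell to 0.40 and 0.08, none of them called. Slfn4 was then called higher in both states, Slfn5 in untreated tumors and Slfn8 in irradiated ones. In monocytes Slfn4 read 163, 302 and 70.8 CPM in the 3 untreated MC38 libraries used and 48.8, 26.2, 17.6 and 21.5 CPM in untreated Panc02-SIY. No Panc02-SIY library reached one of MC38 (3.04 ± 0.79, edgeR adjusted p = 0.020), though the call was lost without untreated MC38 library 3. With Slfn9 (0.93 ± 0.37, edgeR adjusted p = 0.078) it made 2 of 6 members, against 26.1% of all genes. In irradiated monocytes Slfn4 (2.80 ± 0.57, edgeR adjusted p = 0.0041), Slfn1 (0.51 ± 0.17, edgeR adjusted p = 0.027) and Slfn9 (0.64 ± 0.28, edgeR adjusted p = 0.089) were higher in MC38, 3 of 6 against 32.2% of all genes. The Slfn9 call was lost without any 1 of 9 of the 15 libraries used and under 5 of 10 other settings in irradiated monocytes, and without any 1 of 4 libraries and under 6 of 10 settings in untreated ones. The Slfn1 call in irradiated monocytes was lost without irradiated MC38 library 3. Neutrophils could not be compared because MC38 had too few.

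In T cells the tumor contrast rested on few barcodes. In untreated tumors 0 of 7 members were called with edgeR in CD8 T cells or in all T cells (3.77% and 11.3% of all genes). In the same order 1 and 3 had an unadjusted p under 0.05, and DESeq2 called 1 and 2. The shares of all genes are not given for these last counts, so nothing is concluded from them. In irradiated CD8 T cells Slfn1 (1.44 ± 0.36, edgeR adjusted p = 0.038) and Slfn4 (4.94 ± 0.81, edgeR adjusted p = 0.0025) were higher in MC38, against 7.90% of all genes called. Slfn4 was at 114 CPM (19 UMIs) in irradiated MC38 library 3 and 4.61 CPM (1 UMI) in library 4, and without library 3 the fitted changes were 0.64 for Slfn1 and 1.34 for Slfn4, neither called. In irradiated T cells Slfn1 (1.04), Slfn2 (0.61) and Slfn4 (3.53) were called, against 12.0% of all genes. All 7 monocyte markers were detected in irradiated MC38 CD8 T cells, with a summed level of 594 to 1142 CPM, and 9 of 10 macrophage markers (Mrc1 at 0), at 889 to 1532 CPM against 210 to 245 CPM in irradiated Panc02-SIY. Their part in the result was not tested. In NK cells 0 of 4 members differed between the tumor lines in either state with edgeR (8.02% and 14.5% of all genes), with none at an unadjusted p under 0.05 and 0 by DESeq2.

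Genes of related pathways also differed between the groups in macrophages. The lists hold no Schlafen gene. They were chosen with earlier results of these data known, so their counts here and below are a description and not a test. Over all genes tested in macrophages, 10.5% (MC38) and 4.77% (Panc02-SIY) were called after radiation, 5.66% and 2.61% higher, and 46.3% (untreated) and 47.4% (irradiated) were called between the tumor lines. Of 40 interferon pathway genes, which include sensors, signaling factors and antiviral effectors, 31 were called higher and 0 lower in MC38 after radiation (median log2 fold change 0.70) and 19 and 0 in Panc02-SIY (0.62). The largest were Rsad2 (1.45) and Ifi205 (1.40) in MC38 and Ifi205 (1.95) and Oas3 (1.93) in Panc02-SIY. The same list was higher in MC38 than in Panc02-SIY macrophages for 32 genes untreated, led by Usp18 (2.68) and Isg20 (2.60), and for 35 irradiated, led by Isg20 (2.48) and Mx1 (2.40), with 2 and 1 lower. Over all CD45+ barcodes 30 and 28 of these genes were higher after radiation in MC38 and Panc02-SIY (7.24% and 7.68% of all genes higher) and none lower, and in monocytes edgeR called 0 in either tumor.

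Of 18 p53 targets tested in macrophages, genes of the DNA damage response, 17 were called higher and 0 lower in MC38 (median 1.50) and 12 and 0 in Panc02-SIY (0.75). Phlda3 (4.09) and Trp53inp1 (2.86) led in MC38, and Cdkn1a (2.94) and Trp53inp1 (2.14) in Panc02-SIY. Of 18 proliferation genes, 0 were higher and 12 lower in MC38 (-1.50) and 0 and 6 in Panc02-SIY (-0.77), led by Stmn1 (-2.94) and Hist1h1b (-2.47) in MC38 and by Hist1h1b (-1.64) and Tyms (-1.42) in Panc02-SIY. Of 17 quiescence genes tested, 6 were higher and 1 lower in MC38 (0.46), against 3 and 1 in Panc02-SIY (0.23). The p53 calls were not limited to macrophages. In CD8 T cells 16 of 19 targets tested were called higher in Panc02-SIY (median 1.35) and 3 of 19 in MC38. In Panc02-SIY CD4 T cells 7 of 12 were, in NK cells 4 of 15 in each tumor, and in monocytes 0 of 13 in each. No Schlafen gene was called after radiation in any of these classes, whose shares of all genes called are given above.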

How the data were processed

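Droplet single-cell RNA-seq (10x 3' version 3.0) was made from 16 libraries of CD45+ tumor cells, 4 per group as the labels give them. The deposited values are raw UMI counts of each gene in each barcode. The authors produced them on mm10 with bcl2fastq 2.20.0 and Cell Ranger 3.1.0, per the submitters' processing notes, so alignment and cell calling are theirs. Reads from the 3' end cannot resolve isoforms.

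Each barcode was kept in the library where it had the most UMIs. A barcode joined a class when at least 2 markers of it were detected and its share of detected markers led the next class by at least 0.2. Between monocytes and macrophages no such lead was required, and the larger share decided. Counts were summed per library and class (at least 10 barcodes per library and 2 libraries per group) and fitted with edgeR 4.0.16 in R 4.3.3 (filterByExpr, TMM, robust quasi-likelihood F test, 1 coefficient per group). All 4 groups were fitted together, except CD4 T, regulatory T, B, neutrophil and cDC classes, fitted in Panc02-SIY alone after class sizes were seen. Calls needed a Benjamini-Hochberg adjusted p below 0.1 over all genes and a fold above 1.3. The SE given with an edgeR log2 fold change is its absolute value divided by the square root of the F statistic. It is an approximation and need not match the p-value. Class pairs used sign-flip permutation (100000 resamples, or exact under 10 libraries). Python 3.11.15, numpy 2.4.6, pandas 2.3.3, scipy 1.17.1, matplotlib 3.10.9 and Biopython 1.88 were used. Doublets were not removed, and 1 alternative dropped the 5% of barcodes with the most UMIs per library. Counting error only is covered by shares of barcodes, since no interval between animals can be given for them.

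On simulated data the MC38 macrophage contrast (10556 genes) recovered 75 of 96 genes changed by 1 on the log2 scale and 98 of 100 changed by 2, with 16 of 10145 unchanged genes called. The CD8 T contrast in MC38 (10870 genes) recovered 6 of 94 and 34 of 99, so few changes could be seen there. The members, classes and lists were chosen with earlier results of these data known. Named genes are the 7 members, the 2 called genes with the largest change of each list, and the 5 genes most like each member. The genes named this way from the quiescence list are not reported here. Positions follow GENCODE vM21 on mm10, and promoter windows follow RefSeq on GRCm38.p6, the same build. Unshared barcodes and macrophages far from monocytes and neutrophils were alternatives chosen after seeing the data.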

Additional observations from a re-analysis of the deposited data

Results flagged for a closer look

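In 129 groups of 4 libraries, 12 had 1 library whose gap to the nearest other, as a share of the range, exceeded Dixon's 95% limit, where chance gives about 1 in 20. Over all CD45+ barcodes, Slfn2 was at 375 CPM in untreated MC38 library 3 (the others 399 to 404) and at 391 CPM in irradiated Panc02-SIY library 1 (347 to 351), and Slfn9 was at 37.5 CPM in irradiated MC38 library 1 (28.0 to 29.3). In macrophages, untreated MC38 library 3 was low for Slfn2 (349 CPM, others 397 to 402) and Slfn9 (17.4 CPM, others 23.3 to 24.4), untreated MC38 library 2 was high for Slfn5 (187 CPM, others 152 to 155), and irradiated Panc02-SIY library 4 was high for Slfn9 (44.7 CPM, others 22.1 to 24.9). Slfn1 in monocytes of irradiated Panc02-SIY library 2 was at 294 CPM (326 to 332). In irradiated Panc02-SIY library 3, Slfn1 in CD4 T cells was at 52.2 CPM (14 UMIs in 48 barcodes), below 123 to 130 CPM in the others. In NK cells, Slfn2 was at 133 CPM in untreated Panc02-SIY library 2 (168.7 to 169.8), and Slfn8 was at 131 CPM in irradiated Panc02-SIY library 4 (94.9 to 101). Slfn9 in neutrophils of untreated Panc02-SIY library 3 was at 70.8 CPM, from 17 UMIs in 88 barcodes, against 18.0 to 25.1 CPM in the others.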

How the results depend on the processing

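Of 1241 values of single members under an alternative, 1115 kept their direction and side of the threshold, 122 crossed the threshold and 4 reversed. All 4 reversals were Slfn2 between tumor lines with unshared barcodes, at -0.30 (irradiated) and -0.16 (untreated) over all CD45+ barcodes and -0.19 and -0.24 in macrophages. With unshared barcodes the number of members called over all CD45+ barcodes went from 6 to 1 for MC38 radiation, from 4 to 2 between untreated and from 6 to 2 between irradiated tumors. Summed over classes it went from 5 to 1 for MC38 radiation, from 5 to 3 for Panc02-SIY radiation, from 7 to 3 between untreated and from 9 to 3 between irradiated tumors, where only macrophages could be fitted. With all barcodes MC38 radiation kept 3 class calls, and with macrophages far from monocytes and neutrophils 2, against 0 in Panc02-SIY. Panc02-SIY radiation had 2 class calls under the stricter gate, 2 at an adjusted p below 0.05, and 0 when only its 2 groups were fitted (Slfn4 in macrophages was not tested in that fit). At a log2 fold change above 0.58 it had 3 (classes) and 3 (all CD45+, from 5). Classes fitted in Panc02-SIY alone went from 0 to 2 calls (Slfn1 and Slfn5 in cDCs) with no filter on low counts. Class pairs went from 173 of 252 to 83 of 105 with at least 20 barcodes and to 11 of 14 in MC38 alone. The other alternatives (DESeq2, RLE scaling, cell filter, richest barcodes removed, thinned depth) kept each count within 1.5 times, as did both pseudocounts for class pairs. The causes were not tested, beyond the fewer libraries and barcodes that some settings leave.

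Leaving out 1 library in turn, calls over all CD45+ barcodes ranged from 5 to 6 (MC38 radiation), 4 to 5 (Panc02-SIY radiation), 4 to 5 (untreated tumors), 5 to 6 (irradiated tumors) and 0 to 0 (difference). Summed over classes they ranged from 5 to 6, 2 to 5, 4 to 8, 5 to 10 and 0 to 0, from 0 to 1 in Panc02-SIY alone, and from 153 to 176 for class pairs. The lowest class counts came without untreated Panc02-SIY library 4 or irradiated library 2 (2), without untreated MC38 library 3 (4) and without irradiated MC38 library 3 (5). Where a class was left with 1 library, that library was assumed to vary like the other groups.

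Same-numbered libraries were not shown to be paired (correlations of deviations from -0.041 to 0.083 in MC38 and from -0.157 to 0.75 in Panc02-SIY). With replicate number as a block the counts were 6, 5, 4, 6 and 0 over all CD45+ barcodes (MC38, Panc02-SIY, untreated tumors, irradiated tumors, difference), 5, 5, 7, 9 and 0 over classes and 0 in Panc02-SIY alone, and no call named here changed.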
